A study of Mus musculus with 35 samples.

Results

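Kinesin genes, taken as the gene rows whose symbol starts with Kif followed by a digit or c, or with Klc followed by a digit, made up 48 of the 24411 gene rows of the RNA count tables of mouse spermatocytes (Spc), round spermatids (RS) and isolated chromatoid bodies (CB). Of these, 47 had 10 or more counts in at least 3 libraries of a table and are the members described here. All 47 passed in the Spc and RS tables and 45 passed in the CB table. Kif12 passed nowhere (highest count 1), and Kif26b and the antisense RNA Kif16bos did not pass in CB (2 of 7 libraries each with the minimum). By known role, 15 members act on the spindle, chromosomes or in cytokinesis, 17 carry cargo, 4 are light chains of kinesin-1, 6 belong to cilia, centrioles or the flagellum, and 5 are grouped as other. The name rule also took in 3 rows that are no motor or light chain: Kif16bos, the pseudogene Kif4-ps, and Kif1bp, a protein that binds kinesins. Kif4 and Kif4-ps, and Kifc1 and Kifc5b, are near-identical pairs whose reads the counting may have split, so their values are less certain.

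The study deleted exon 9 of Smg6, which encodes the endonuclease of nonsense-mediated mRNA decay (NMD), in male germ cells of adult mice of a mixed C57Bl/6J and SV129 background. The Smg6-cKO mice carried the floxed allele and a Cre transgene driven by the Ngn3 promoter, which is active in spermatogonia, so by design the exon is lost before meiosis. Controls (CTRL) were littermates without Cre that also carried the floxed allele, on both copies of the gene or on 1. How many of each entered a library is not given in the sources used here. Pachytene spermatocytes and round spermatids were enriched by velocity sedimentation through a BSA gradient and gave 3 poly(A) RNA libraries per genotype and cell type, while CBs were immunoprecipitated with anti-DDX4 and gave 4 control and 3 cKO libraries of total RNA, each from pooled mice. CB libraries are called a to d here, since the numbers in their column names do not match those of the labels as a set. The column names of control libraries b and c carry letters that those of a and d lack, and their meaning is not given. The labels do not say whether libraries of one number come from the same mice, and p-values measure the spread between these libraries.

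Kinesins are ATP-driven motors that walk along microtubules, most of them towards the plus end, or take microtubule ends apart. In dividing cells they build the spindle, move chromosomes and take part in cytokinesis, and in other cells they carry vesicles, mitochondria and RNA granules or supply the cilium through intraflagellar transport. Male germ cells need both kinds: spermatocytes pass through the meiotic divisions, and spermatids form the manchette and the flagellum. KIF17b, a testis form of Kif17, is known to carry the CREM coactivator ACT out of the spermatid nucleus and to be found at the CB.

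Depth ranged from 36419197 to 47355837 gene counts per library in Spc, from 40237647 to 45391308 in RS and from 2705277 to 12103906 in CB, so low genes are less precise in CB. Levels are given as CPM, counts scaled to a common library size, after TMM scaling. The whole-gene level of Smg6, which does not isolate the deleted exon, was 132 to 216 CPM in control RS and 175 to 188 CPM in cKO RS and checks no label. Markers of other cells moved with genotype. In RS, all 10 late spermatid markers, among them the protamine gene Prm1, were lower in cKO at adjusted p 0.05 (summed level 28284 to 37464 CPM in control and 1891 to 1943 CPM in cKO), as were all 10 round spermatid markers, while 8 of 9 Leydig cell markers tested, 10 of 11 Sertoli cell markers tested and 12 of 14 macrophage markers were higher and 1 macrophage marker was lower (Aif1). Markers of dividing germ cells moved both ways there, with 7 of 12 spermatocyte markers higher and 4 lower (median log2 fold change 0.71) and 4 of 8 spermatogonia markers higher and 2 lower (median 0.44). The summed Leydig markers reached 46.9 to 360.1 CPM in cKO RS against 29.7 to 32.5 CPM in control RS, the Sertoli markers 94.04 to 257 against 68.3 to 79.4 CPM, and the macrophage markers 362 to 605 against 544 to 663 CPM. The median log2 fold change of the 14 macrophage markers was 3.13, so their sum does not show the rise of most of them. Of 6 peritubular myoid markers 2 were higher past both thresholds and 1 was lower by adjusted p (summed level 11.5 to 15.2 CPM in control and 14.2 to 20.4 CPM in cKO), and of 5 endothelial markers tested 1, Vwf, was lower past both (22.8 to 32.96 and 9.57 to 10.7 CPM). No gene of these 9 lists was at 0 in either RS group. In Spc the summed late spermatid markers were 4222 to 8898 CPM in control and 476 to 1559.7 CPM in cKO, with the highest value in control library 1. The part of these cells in the kinesin results was not tested. In bulk libraries fewer cells of a type and less RNA per cell cannot be told apart.

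RefSeq start sites (GRCm38.p6) were listed for 37 of the 47 members, with 41 promoter windows of 250 bases before to 50 bases after the start. Letters were searched on both strands for the cAMP response element, CRE (TGACGTCA), the site of CREM, an activator of genes of round spermatids, and for the cell cycle genes homology region, CHR (TTTGAA, or TTCAAA on the other strand), found near the start of many genes of the mitotic cycle. The CRE was in 4 of the 41 windows, 9.76%, and in 1.79% of all 32851 windows. The CHR was in 14 windows, 34.1%, and in 17.9% of all. Of the 14 spindle genes with a window 11 held a CHR, 9 of them within 30 bases of the start, and of 11 cargo motors 1 did, Kif1a. The CRE lay in the windows of Kif17, Kif5c, Klc1 and Kif18a, of which Klc1 rose in cKO RS (0.93 on the log2 scale) and Kif18a did not pass (-0.04). The listed start of the Kif1a window with the CHR lies 19471 bases inside the gene annotated in GENCODE, and the other Kif1a window holds none. Among the other windows with a CHR, the listed starts of Kif27, Kif2c, Kif14 and Kif4 lie 4175, 3867, 1505 and 328 bases inside their genes. A CHR near the start did not go with one direction. Within 30 bases it was found for Kif4, Kifc1, Kifc5b, Kif23 (0.80) and Kif20b (0.51), which rose in cKO RS. It was also found there for Kif15 (-0.43) and Kif26b (-2.14), which fell, and for Kif11, Kif18b and Kif22, which did not pass. Kif2c, called lower, held one farther off. The windows of Kif17 and Kif5c are printed because both genes were called lower in cKO spermatids, and those of Kif4, Kifc1 and Kifc5b because they show a CHR near the listed start of spindle members that were higher there, with that start at base 251 and the found letters in capitals. The window of Kif17 (chr4:138262001-138262300, plus strand) lies inside the gene, 11816 bases downstream of the gene start annotated in GENCODE. The other windows were chr2:49619036-49619335 (Kif5c, plus), chrX:100625815-100626114 (Kif4, plus), chr17:33890584-33890883 (Kifc1, minus) and chr17:26916841-26917140 (Kifc5b, plus), and the last 2 shared an identical run of 68 bases. A match is a description of letters and no binding site was measured.
Kif17: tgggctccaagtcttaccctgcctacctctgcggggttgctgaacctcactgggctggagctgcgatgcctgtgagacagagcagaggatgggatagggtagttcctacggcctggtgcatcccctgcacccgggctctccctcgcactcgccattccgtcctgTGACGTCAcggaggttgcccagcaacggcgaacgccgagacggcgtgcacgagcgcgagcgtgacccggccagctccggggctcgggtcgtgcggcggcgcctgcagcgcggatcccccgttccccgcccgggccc
Kif5c: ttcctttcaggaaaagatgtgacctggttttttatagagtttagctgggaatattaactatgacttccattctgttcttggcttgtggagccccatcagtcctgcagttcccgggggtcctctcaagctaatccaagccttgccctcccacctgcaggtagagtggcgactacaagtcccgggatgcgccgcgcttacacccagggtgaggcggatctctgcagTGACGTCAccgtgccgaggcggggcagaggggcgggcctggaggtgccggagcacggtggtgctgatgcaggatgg
Kif4: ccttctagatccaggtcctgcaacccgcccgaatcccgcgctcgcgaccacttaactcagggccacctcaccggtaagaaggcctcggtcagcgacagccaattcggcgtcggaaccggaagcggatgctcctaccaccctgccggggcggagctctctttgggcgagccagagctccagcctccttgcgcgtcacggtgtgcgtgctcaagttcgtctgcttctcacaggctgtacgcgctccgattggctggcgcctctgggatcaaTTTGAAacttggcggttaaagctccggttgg
Kifc1: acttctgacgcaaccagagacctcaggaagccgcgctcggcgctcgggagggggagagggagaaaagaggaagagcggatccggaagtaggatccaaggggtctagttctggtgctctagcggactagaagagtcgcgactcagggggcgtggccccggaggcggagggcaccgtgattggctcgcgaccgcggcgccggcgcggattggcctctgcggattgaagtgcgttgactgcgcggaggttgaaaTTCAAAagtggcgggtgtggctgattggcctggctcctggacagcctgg
Kifc5b: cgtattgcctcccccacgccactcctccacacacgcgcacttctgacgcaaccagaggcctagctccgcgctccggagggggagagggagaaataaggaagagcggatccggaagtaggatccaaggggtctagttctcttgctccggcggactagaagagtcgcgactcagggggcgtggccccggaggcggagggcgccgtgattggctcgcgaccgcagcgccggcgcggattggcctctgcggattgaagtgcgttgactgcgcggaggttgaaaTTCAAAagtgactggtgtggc

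Levels were compared between genes only per kilobase of RefSeq exon sequence, on one scaling of the 12 Spc and RS libraries, as mean ± SD over 3 control libraries. That sequence joins the exons of all curated isoforms, so the level is understated where a shorter form prevails. For Kif27 it had 7336 bases, and the most counted coding transcript in RS had 4462. In control Spc the highest were Kif2b at 144 ± 48.8 CPM per kb, a microtubule depolymerase of kinetochores, and Kif9 at 139.9 ± 8.58, a kinesin of the sperm flagellum. These 2 neighbours did not differ beyond their spread. Next came Kif3b, a kinesin-2 subunit of intraflagellar transport, at 68.2 ± 0.969, then Kif2c (MCAK), a second depolymerase, at 51.1 ± 11.7, and Kif17, a kinesin-2 motor, at 49.2 ± 21.8 CPM per kb. The libraries of Kif2c and Kif17 overlapped. Among light chains, which link kinesin-1 to its cargo, Klc2 was highest at 44.1 ± 3.92 and Klc4 next at 10.4 ± 0.750 CPM per kb.

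In control RS Kif2b stood highest at 578 ± 26.8 CPM per kb, above every other member in all 3 libraries. Kif17 followed at 225 ± 31.2 and Kif9 at 210.3 ± 3.72, 2 neighbours whose libraries overlapped, then Kif2c at 185 ± 22.9, Kif27, a relative of the Hedgehog regulator Kif7, at 104 ± 5.41, and Kif3b at 81.8 ± 1.65 CPM per kb. Of the light chains Klc2 stood at 34.3 ± 1.81 and Klc3, which binds mitochondria and outer dense fibers in sperm, at 20.5 ± 4.69. In the mixed group Kif1bp reached 58.3 ± 0.971 and Kif16bos 22.1 ± 1.54. The lowest were Kif26b at 0.312 ± 0.0141, Kif3c at 0.155 ± 0.0344 and Kif26a at 0.144 ± 0.0364 CPM per kb. The highest member of the spindle class in RS, a cell past its divisions, was thus expressed above every cargo motor.

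The comparison of cKO with CTRL RS asked which kinesin RNAs differ between the round spermatid fractions of the genotypes. The paper reports that cKO testes held early round spermatids, but no normal late ones and no elongating spermatids. It also reports that the fractions were enriched and not pure. Whether spermatid stage has a part in the differences below was not tested. At a log2 fold change of at least 1.5 and adjusted p of at most 0.05 (edgeR, Benjamini-Hochberg over 17492 genes), 4 of 47 members were higher and 9 lower, which is 8.51% and 19.1% of the members beside 14.8% and 11.6% of all genes. By adjusted p alone 17 rose and 20 fell, against 38.4% and 34.3% of all genes. The median log2 fold change of the members was 0.02 and that of all genes 0.11. The summed level of all members was 6068 to 6683 CPM in control and 3398 to 3649 CPM in cKO, without overlap. By library size alone, an alternative for sums that was chosen after seeing the data, it was 5065 to 5217 and 4239.9 to 4446 CPM. Single members had groups that did not overlap in 39 of 47 cases, 83.0%, beside 76.9% of all genes. Libraries are given in the order 1, 2, 3, and ± is the SE of a log2 fold change.

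**Figure D1:**
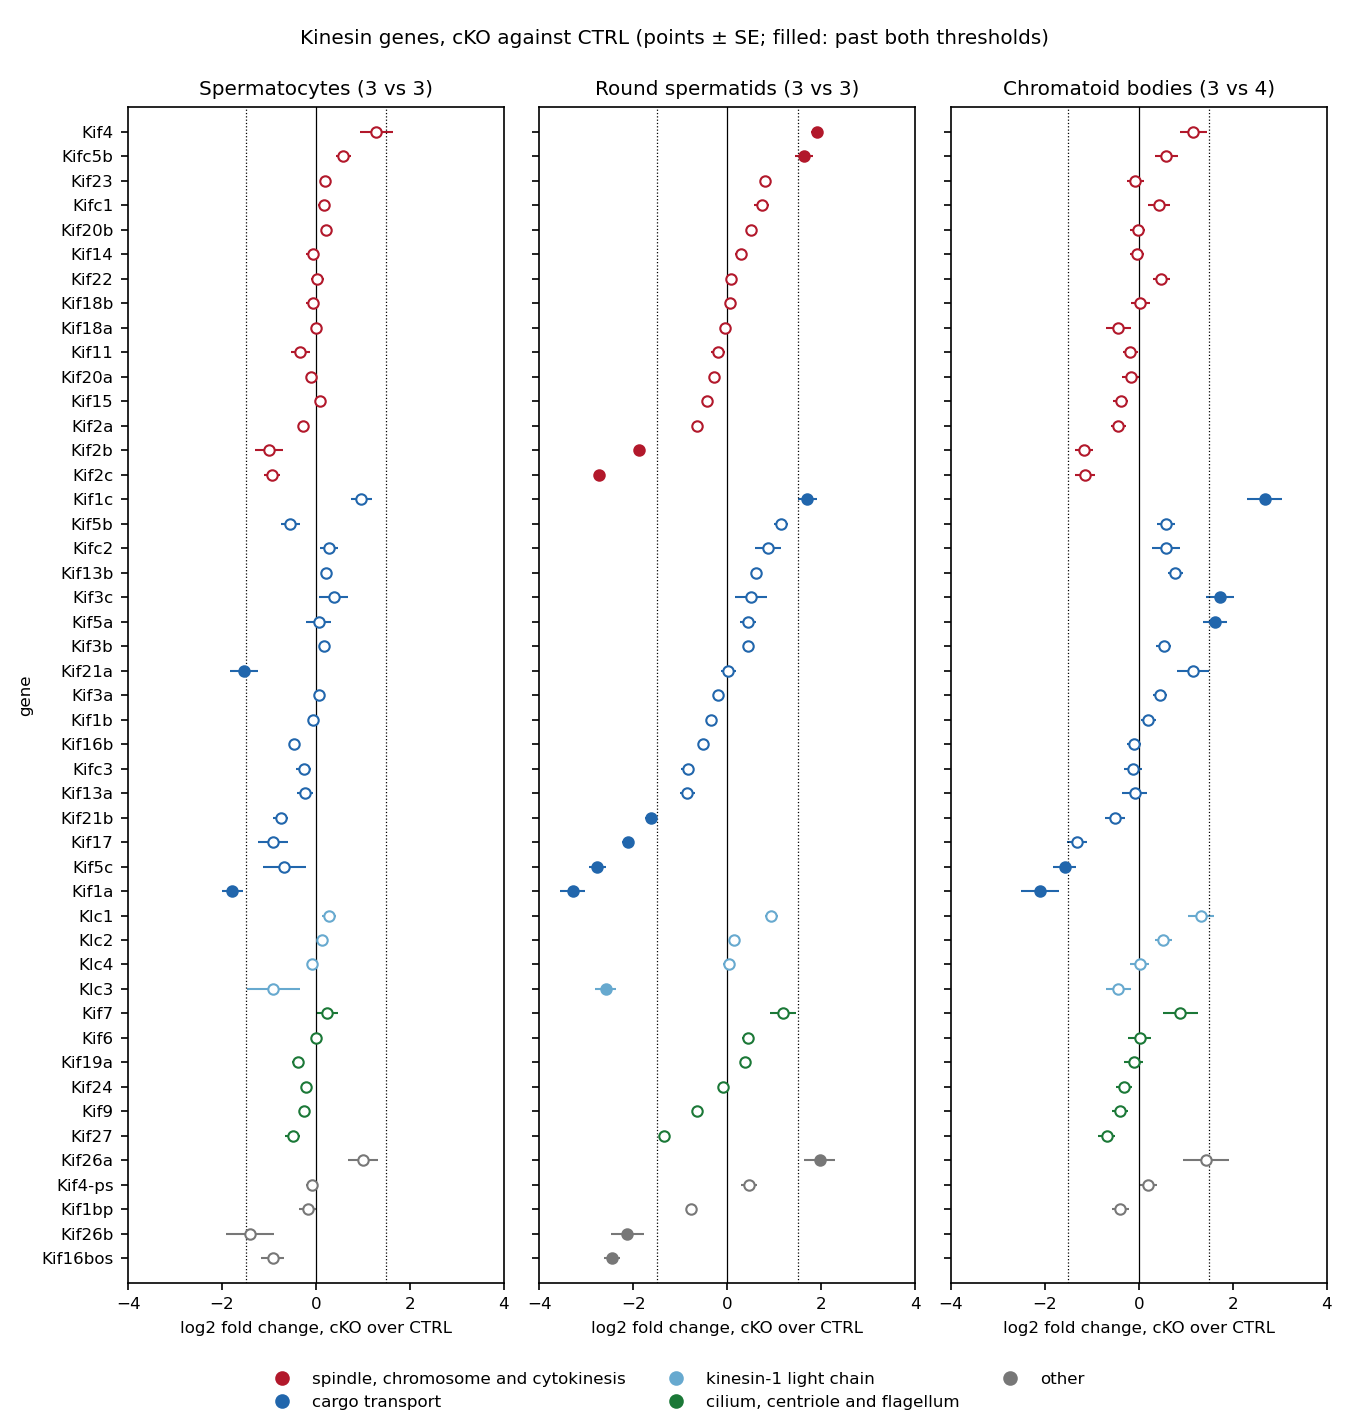
Log2 fold change of cKO over CTRL (x axis, points ± SE) for each of the 47 kinesin genes (y axis, coloured by class) in spermatocytes, round spermatids and chromatoid bodies, with filled points for genes past both thresholds and dotted lines at 1.5. In round spermatids 13 points are filled, from -3.29 for Kif1a to 1.97 for Kif26a, against 2 in spermatocytes and 5 in chromatoid bodies.

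Among spindle and chromosome kinesins, 2 of 15 passed both thresholds in each direction in RS, and 5 rose and 5 fell by adjusted p alone. The falls past both were in kinesin-13 genes. Kif2c (chr4:117159639-117182639, minus strand, GRCm38) had 511, 463 and 591 CPM in the control libraries and 81.3, 75.5 and 79.5 CPM in the cKO libraries, a log2 fold change of -2.73 ± 0.10 (edgeR adjusted p = 3.28e-07). Kif2b (chr11:91575315-91577558, minus strand) had 1148, 1202 and 1261 CPM in the control libraries and 312, 352 and 315 CPM in the cKO libraries, a log2 fold change of -1.88 ± 0.07 (edgeR adjusted p = 4.2e-07). Neither gene's groups came near each other, and the spread within each group was small. The third kinesin-13 gene, Kif2a, was at -0.64 ± 0.08 (edgeR adjusted p = 0.000220). The spindle motor Kif15 and the cytokinesis motor Kif20a were slightly lower, at -0.43 and -0.29, but at 0.19 and 0.33 when libraries were scaled by size alone.

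Kif4 (chrX:100625737-100727214, plus strand), an X-linked chromokinesin of chromosome arms and the central spindle, had 6.13, 5.89 and 6.16 CPM in the control libraries and 23.2, 20.6 and 24.2 CPM in the cKO libraries, a log2 fold change of 1.90 ± 0.12 (edgeR adjusted p = 3.95e-06). Kifc5b, a minus-end motor of the Kifc1 type, had 3.34, 4.09 and 2.87 CPM in the control libraries and 12.3, 10.1 and 9.33 CPM in the cKO libraries, a log2 fold change of 1.62 ± 0.19 (edgeR adjusted p = 0.000137). All cKO libraries exceeded all control libraries for both, at low levels. Smaller rises were measured for Kifc1, the minus-end motor that gathers spindle poles, at 0.73 ± 0.15 (edgeR adjusted p = 0.00284), for the central spindle motor Kif23 at 0.80 ± 0.09 (edgeR adjusted p = 7.82e-05) and for the cytokinesis motor Kif20b at 0.51 ± 0.08 (edgeR adjusted p = 0.000834). The pseudogene row Kif4-ps was at 0.46 ± 0.17 (edgeR adjusted p = 0.0339). Past both thresholds on the higher side were also 1 spermatocyte marker, Pou5f2, and 1 spermatogonia marker, Stra8, while the summed spermatocyte markers stood at 3029 to 3237 CPM in control and 2949 to 3023 CPM in cKO RS and the summed spermatogonia markers at 889 to 924 and 694 to 791 CPM. The part of these cells in the rises was not tested. Spindle members that did not pass were Kif11, the bipolar motor that pushes poles apart, Kif14, Kif18a, Kif18b and Kif22, with log2 fold changes between -0.20 and 0.28.

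Of 17 cargo motors, 1 was higher and 4 lower past both thresholds in RS, and 6 rose and 9 fell by adjusted p alone. Kif1a (chr1:93015464-93101951, minus strand), a kinesin-3 carrier of vesicles best known in neurons, showed the strongest fall of any member, with 42.9, 27.2 and 36.8 CPM in the control libraries and 3.57, 2.53 and 4.78 CPM in the cKO libraries, a log2 fold change of -3.29 ± 0.26 (edgeR adjusted p = 1.48e-05). Kif5c (chr2:49619298-49774778, plus strand), a kinesin-1 heavy chain, had 45.1, 28.9 and 37.5 CPM in the control libraries and 5.70, 5.89 and 4.76 CPM in the cKO libraries, a log2 fold change of -2.77 ± 0.18 (edgeR adjusted p = 5.3e-06). The lowest control library of either gene, library 2, stood well above the highest cKO library. Kif17 (chr4:138250435-138301967, plus strand) had 793, 705 and 927 CPM in the control libraries and 158, 215 and 186 CPM in the cKO libraries, a log2 fold change of -2.12 ± 0.14 (edgeR adjusted p = 4.51e-06). Kif21b, a kinesin-4 that also halts microtubule growth, had 113, 117 and 118 CPM in the control libraries and 44.2, 34.4 and 33.7 CPM in the cKO libraries, a log2 fold change of -1.63 ± 0.11 (edgeR adjusted p = 6.57e-06), with tight groups that did not overlap.

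In the other direction Kif1c (chr11:70700548-70731964, plus strand), a kinesin-3 of Golgi-derived vesicles and mRNA, had 4.73, 4.68 and 4.11 CPM in the control libraries and 16.2, 11.02 and 16.9 CPM in the cKO libraries, a log2 fold change of 1.71 ± 0.19 (edgeR adjusted p = 0.000103). Every cKO library lay above every control library. The kinesin-1 heavy chain Kif5b was at 1.15 ± 0.15 (edgeR adjusted p = 0.000221) and so moved opposite to its paralogue Kif5c, while Kif5a was at 0.44 ± 0.17 (edgeR adjusted p = 0.0466). Within kinesin-2, Kif3b rose at 0.43 ± 0.06 (edgeR adjusted p = 0.000213) with 431, 422 and 415 CPM in control and 547, 578 and 586 CPM in cKO, and its partner Kif3a was slightly lower at -0.20 ± 0.07 (edgeR adjusted p = 0.0325), a fall that turned into a rise of 0.42 when libraries were scaled by size alone. Kif13a, Kif16b, Kif1b and Kifc3 fell by 0.85, 0.52, 0.34 and 0.85 on the log2 scale by adjusted p, of which Kif16b and Kif1b changed sign under scaling by library size, and Kif13b and Kifc2 rose by 0.61 and 0.87.

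Among the 4 light chains 1 passed both thresholds. Klc3 (chr7:19394437-19404104, minus strand) had 46.1, 28.9 and 39.4 CPM in the control libraries and 7.01, 7.05 and 4.89 CPM in the cKO libraries, a log2 fold change of -2.59 ± 0.21 (edgeR adjusted p = 1.83e-05), and its groups were far apart. Klc1, the common neuronal light chain, rose at 0.93 ± 0.14 (edgeR adjusted p = 0.000503), from 5.17, 4.47 and 4.96 CPM in control to 9.38, 9.03 and 9.49 CPM in cKO. Klc2 and Klc4 were at 0.13 ± 0.07 (edgeR adjusted p = 0.131) and 0.03 ± 0.13 (edgeR adjusted p = 0.864), and neither passed. The light chains did not all move one way in RS.

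None of the 6 ciliary and centriolar kinesins passed both thresholds in RS (edgeR), and 3 rose and 2 fell by adjusted p alone, with the same counts at an unadjusted p of 0.05. Kif27 had 695, 668 and 739.7 CPM in the control libraries and 264, 289 and 268 CPM in the cKO libraries, a log2 fold change of -1.36 ± 0.07 (edgeR adjusted p = 1.08e-06), just short of the fold threshold. Kif9 had 669, 664 and 686 CPM in the control libraries and 410.2, 461 and 415 CPM in the cKO libraries, a log2 fold change of -0.65 ± 0.06 (edgeR adjusted p = 4.76e-05). The groups did not overlap for either gene. Kif7 rose at 1.19 ± 0.27 (edgeR adjusted p = 0.00465), a gene at 1.37, 2.25 and 1.69 CPM in control. Kif6, of the cilia of the brain ventricles, and Kif19a, which limits cilium length, were at 0.43 ± 0.13 (edgeR adjusted p = 0.0139) and 0.39 ± 0.12 (edgeR adjusted p = 0.0174), and Kif24, of the mother centriole, did not pass at -0.09 ± 0.11 (edgeR adjusted p = 0.493).

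Of the remaining rows, Kif26a, a kinesin without motor activity, had 1.12, 0.948 and 0.665 CPM in the control libraries and 4.88, 3.20 and 2.65 CPM in the cKO libraries, a log2 fold change of 1.97 ± 0.32 (edgeR adjusted p = 0.000833). Its relative Kif26b had 2.02, 2.22 and 2.12 CPM in the control libraries and 0.645, 0.263 and 0.529 CPM in the cKO libraries, a log2 fold change of -2.14 ± 0.35 (edgeR adjusted p = 0.000804). These 2 paralogues moved in opposite directions, both at a few CPM or less. Kif16bos, transcribed from the other strand beside Kif16b, had 10.8, 10.01 and 9.37 CPM in the control libraries and 1.58, 2.05 and 1.84 CPM in the cKO libraries, a log2 fold change of -2.46 ± 0.17 (edgeR adjusted p = 7.34e-06), while Kif16b itself was at -0.52. The counting was stranded. Kif1bp fell at -0.78 ± 0.08 (edgeR adjusted p = 4.1e-05). Leaving out any 1 of the 6 RS libraries kept each of the 13 calls of the RS comparison. Scaling by library size alone, under which the median over all genes was 0.73, left Kif17, Kif2b and Kif21b under the fold threshold at -1.496, -1.26 and -1.01 and took Kif5b, Kif7 and Klc1 past it.

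**Figure D2:**
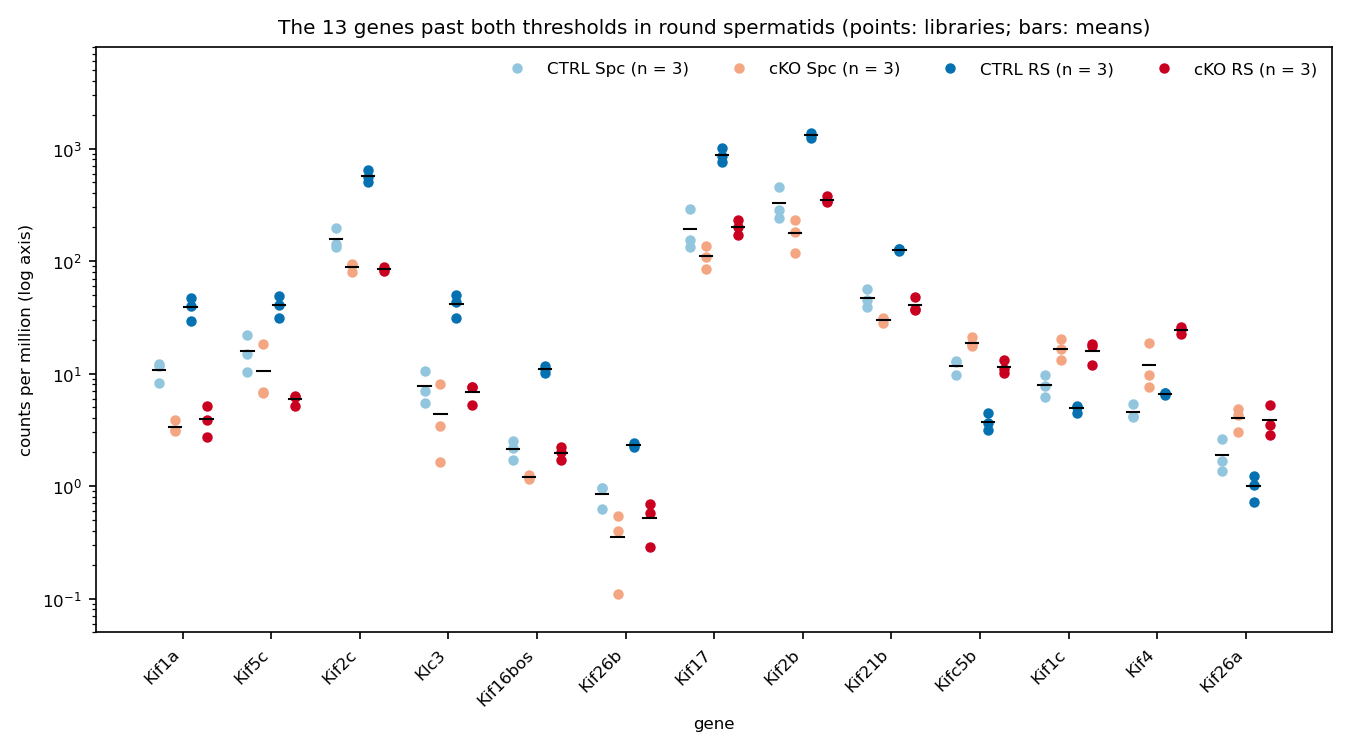
CPM on a log axis (y) in each library (points, 3 per group; bars, group means) for the 13 kinesin genes past both thresholds in round spermatids (x), in control and cKO spermatocytes and round spermatids. For Kif2c the control round spermatid libraries stand above those of the other groups, while the means of the cKO groups differ little. These values are on one scaling of all 12 libraries and differ slightly from those of the round spermatid fit.

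In spermatocytes fewer members differed. Of 47, none was higher and 2 were lower past both thresholds, against 3.41% and 5.10% of 17321 genes, and by adjusted p alone 3 rose and 8 fell (edgeR), against 14.0% and 14.1%. Groups did not overlap for 24 of 47, 51.1%, beside 47.7% of all genes. No member was 1.5 or more on the log2 scale higher, the highest value being 1.28 for Kif4, and 6 were higher at an unadjusted p of 0.05, while DESeq2 also called 0 higher. The median log2 fold change was -0.07 in the members and -0.01 in all genes. Kif1a had 14.1, 13.1 and 9.30 CPM in the control libraries and 3.15, 3.33 and 4.09 CPM in the cKO libraries, a log2 fold change of -1.78 ± 0.22 (edgeR adjusted p = 0.00336), without overlap. Kif21a, a kinesin-4 of axons, had 14.1, 27.4 and 25.5 CPM in the control libraries and 5.52, 8.81 and 8.87 CPM in the cKO libraries, a log2 fold change of -1.53 ± 0.30 (edgeR adjusted p = 0.0134), and its control library 1 was closer to the cKO libraries than the other 2. Without cKO library 1, control library 2 or control library 3 the value was -1.32, -1.36 or -1.43 and the call was lost. Markers of other cells moved with genotype in Spc too. Of 12 Sertoli cell markers 9 were lower in cKO Spc past both thresholds, with a summed level of 388, 984 and 822 CPM in control libraries 1, 2 and 3 and 190.2 to 304 CPM in cKO, so that control library 1 was the lowest of the controls for these markers as for Kif21a. Of 14 macrophage markers 10 were higher and 2 lower by adjusted p (median log2 fold change 1.57, summed level 167 to 334 CPM in control and 162 to 321 CPM in cKO), and 3 of 10 Leydig cell markers were higher (189.8 to 543 and 713 to 1433 CPM). No gene of these lists was at 0 in either group. Their part in the Spc results was not tested.

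Kif2c (-0.95), Kif2b (-1.002), Kif21b (-0.75), Kif16b (-0.47), Kif9 (-0.25) and Kif16bos (-0.92) fell by adjusted p in Spc, and Kif4 (1.28), Kif1c (0.97) and Kifc5b (0.58) rose. Kif2b had 518, 271 and 321 CPM in the control libraries and 185, 244 and 125 CPM in the cKO libraries, a log2 fold change of -1.002 ± 0.31 (edgeR adjusted p = 0.0473). Control library 1, which also had the highest summed late spermatid markers (8898 CPM against 4222 and 4268 CPM), was the highest of the 3 controls for Kif2b, Kif2c, Kif17, Klc3 and Kif27 as well. Kif17 was at 332, 173 and 149 CPM in control and 111, 144 and 89.7 CPM in cKO and did not pass, at -0.92 ± 0.32 (edgeR adjusted p = 0.0686). Klc3, at 12.1, 7.88 and 6.10 CPM in control and 3.48, 8.63 and 1.71 CPM in cKO, overlapped and did not pass, at -0.91 ± 0.56 (edgeR adjusted p = 0.255), but without cKO library 2 it was at -1.73 and Kif4 at 1.55, both then past both thresholds. Kif5c did not pass either, at -0.68 ± 0.46 (edgeR adjusted p = 0.301), with its highest cKO value in the same library 2. The part of late spermatid RNA in these differences was not tested.

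The genotype effect itself was then compared between cell types by the genotype by cell type term of one fit of all 12 Spc and RS libraries. At adjusted p 0.05, 6 members had a higher effect in RS than in Spc and 18 a lower one, against 19.0% and 24.1% of 18171 genes. The extremes were Kif5c at -2.21 ± 0.54 (edgeR adjusted p = 0.00793), Kif2c at -1.91 ± 0.20 (edgeR adjusted p = 0.000200) and Klc3 at -1.80 ± 0.64 (edgeR adjusted p = 0.0412) on the lower side and Kif5b at 1.57 ± 0.26 (edgeR adjusted p = 0.00125) and Kif21a at 1.44 ± 0.35 (edgeR adjusted p = 0.00823) on the higher. All 12 Sertoli markers also had a higher effect in RS than in Spc, with a median log2 difference of 3.27, and among the control Spc libraries library 1 was lowest for Kif21a and Kif5b as for the summed Sertoli markers. On the lower side stood 6 of 10 late spermatid and 8 of 10 round spermatid markers. The part of these cells in the term was not tested. Kif21a was lower in cKO Spc and did not pass in RS, and Kif5b rose in RS and was at -0.54 ± 0.20 (edgeR adjusted p = 0.0805) in Spc. For Kif4, Kif1c and Kif26a, higher in cKO RS, the term did not pass at 0.05, with 0.50 ± 0.38, 0.62 ± 0.31 and 0.86 ± 0.46. This term depended on scaling: by library size alone, where its median over all genes was 0.58 in place of -0.13, 29 members were higher and 4 lower. Of the 24 calls 16 held in all 12 fits without 1 library, and that of Klc3 held in only 3 (highest adjusted p 0.123, without cKO Spc library 2).

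The comparison of RS with Spc asked how kinesin RNAs change from meiosis to the spermatid in each genotype. In control 6 of 47 members were higher and 5 lower in RS past both thresholds, against 17.0% of all genes in each direction, and 22 and 21 by adjusted p alone, against 36.2% and 39.7%. Control groups did not overlap for 45 of 47, 95.7%, beside 80.6% of all genes. In cKO none was higher and 1 lower, against 3.27% and 3.79%, and by adjusted p 15 and 12, against 18.9% and 26.4%. DESeq2 also called 0 higher in cKO, and 16 were higher at an unadjusted p of 0.05. The cKO groups did not overlap for 31 of 47, 66.0%, beside 58.7% of all genes. These comparisons share libraries with the genotype comparisons, so their values are given side by side and no overlap is counted. Markers differed between the cell fractions as well. In control RS all 10 late spermatid and all 10 round spermatid markers were higher than in control Spc by adjusted p, and all 10 Leydig and all 12 Sertoli markers were lower. Of 12 spermatocyte markers 9 were lower in RS in each genotype, with a median of -1.14 in control and -0.88 in cKO, as were Kif11, Kifc5b and Kif4-ps in control. In cKO RS 6 late spermatid, 8 round spermatid and 12 of 14 macrophage markers were higher than in cKO Spc and 8 of 10 Leydig markers were lower. Their part in the kinesin differences was not tested.

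Klc3 was higher in control RS by 2.30 ± 0.28 (edgeR adjusted p = 0.000321) and in cKO the difference was 0.62 ± 0.52 (edgeR adjusted p = 0.347). Kif17 was at 2.06 ± 0.30 (edgeR adjusted p = 0.000667) in control and 0.85 ± 0.18 (edgeR adjusted p = 0.00730) in cKO. Kif2b was at 1.87 ± 0.23 (edgeR adjusted p = 0.000331) and 0.98 ± 0.21 (edgeR adjusted p = 0.00737) in that order. Of the members that were higher in control RS past both thresholds, 5 encode proteins, and these include 2 spindle kinesins, 2 cargo motors and 1 light chain. Kif2c was at 1.72 ± 0.18 (edgeR adjusted p = 0.000204) in control and at -0.08 ± 0.08 (edgeR adjusted p = 0.452) in cKO. Kif1a was at 1.71 ± 0.21 (edgeR adjusted p = 0.000344) and 0.19 ± 0.27 (edgeR adjusted p = 0.593). The antisense RNA Kif16bos was at 2.23 in control and 0.68 in cKO. Kif5c rose in control RS by adjusted p only, at 1.22 ± 0.29 (edgeR adjusted p = 0.00605), and its cKO value was -0.87 ± 0.40 (edgeR adjusted p = 0.107). When libraries were scaled by size alone, which put the control median over all genes at -0.54 in place of -0.08, Kif1a, Kif2b and Kif2c were at 1.26, 1.42 and 1.27 and below the fold threshold.

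Lower in control RS than in control Spc were Kif4-ps (-2.11), Kif5b (-2.02), Kifc5b (-1.78), Kifc2 (-1.77) and Kif19a (-1.51), all past both thresholds in the edgeR test. Their cKO values were -1.58, -0.34, -0.75, -1.20 and -0.77 in the same order. The call of Kif19a was lost with DESeq2 (-1.446) and without control Spc library 2 (-1.45) or control RS library 3 (-1.42), and that of Kif4-ps in cKO without cKO Spc library 1 (-1.47) or cKO RS library 2 (-1.46). Kif11, needed for the bipolar spindle, was lower in RS in both genotypes, at -1.22 ± 0.15 (edgeR adjusted p = 0.000347) in control and -1.10 ± 0.21 (edgeR adjusted p = 0.00455) in cKO, and the interaction term was 0.02 ± 0.28 and did not pass. Kif18b, a kinesin-8 of plus ends, was higher in RS in both, at 0.78 and 0.90. Kif21a fell in control RS by 1.40 on the log2 scale and was at 0.14 in cKO.

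**Figure D3:**
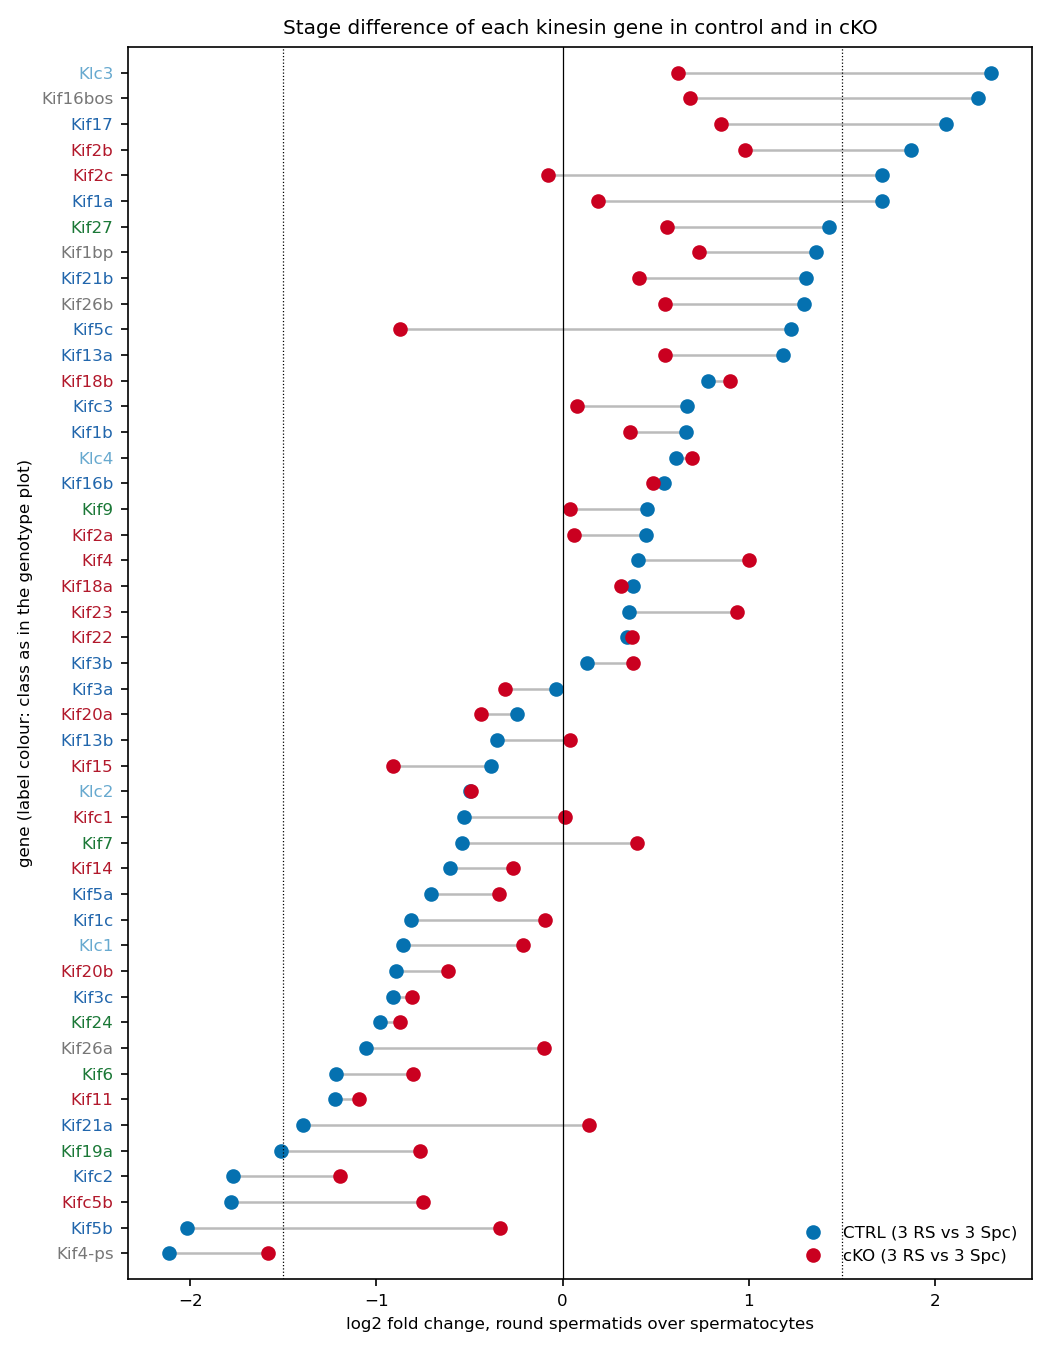
Log2 fold change of round spermatids over spermatocytes (x axis) for each of the 47 kinesin genes (y axis, sorted by the control value), in control (blue) and cKO (red), 3 against 3 libraries each, with dotted lines at 1.5. Control values run from -2.11 for Kif4-ps to 2.30 for Klc3 and cKO values from -1.58 to 1.00 for Kif4. The 2 series share no library.

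CBs are RNA and protein granules beside the spermatid nucleus that hold DDX4 and PIWI proteins. In their immunoprecipitates 3 of 45 members were higher and 2 lower in cKO past both thresholds, against 5.69% and 5.64% of 14051 genes, and by adjusted p alone 12 rose and 7 fell, against 18.1% and 18.4%. Groups did not overlap for 22 of 45, 48.9%, beside 39.7% of all genes. The median log2 fold change was -0.02 in the members and 0.07 in all genes. Libraries are in the order a, b, c and, for control, d.

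Kif1c had 8.04, 3.40, 8.46 and 3.99 CPM in the control libraries and 18.3, 49.3 and 44.8 CPM in the cKO libraries, a log2 fold change of 2.68 ± 0.37 (edgeR adjusted p = 0.000202). Kif3c, a neuronal kinesin-2, had 4.58, 3.11, 3.20 and 3.41 CPM in the control libraries and 8.20, 16.6 and 11.8 CPM in the cKO libraries, a log2 fold change of 1.73 ± 0.30 (edgeR adjusted p = 0.000835). Kif5a, a kinesin-1 heavy chain, had 7.30, 6.95, 7.09 and 7.25 CPM in the control libraries and 15.6, 32.2 and 20.001 CPM in the cKO libraries, a log2 fold change of 1.63 ± 0.25 (edgeR adjusted p = 0.000385). All 3 genes had their highest value in cKO library b and no overlap between groups, and without that library Kif3c was at 1.49 and Kif5a at 1.33, short of the fold threshold. With library size as the only scaling Kif5a was at 1.44 and its call was lost. Library b was also the shallowest, with 2705277 counts. The summed Leydig markers were 69.6, 366 and 501 CPM in cKO CB libraries a, b and c and 33.3 to 87.1 CPM in control. All 9 Leydig markers tested were higher in cKO CB by adjusted p, 3 of 8 Sertoli markers tested were higher, and 4 of 8 macrophage markers tested were higher and 1 lower. Of 6 spermatogonia markers tested 3 were higher, each with its highest value in library b as well. Zbtb16 had 6.35, 29.01 and 15.7 CPM, Stra8 13.8, 60.8 and 7.32 CPM and Kit 7.14, 25.3 and 15.001 CPM in cKO libraries a, b and c. The part of these cells in the rises in CB was not tested.

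Kif1a had 14.2, 10.2, 29.3 and 15.3 CPM in the control libraries and 2.38, 5.53 and 4.29 CPM in the cKO libraries, a log2 fold change of -2.10 ± 0.40 (edgeR adjusted p = 0.00147). Kif5c had 27.8, 24.1, 41.4 and 27.8 CPM in the control libraries and 11.4, 8.75 and 9.82 CPM in the cKO libraries, a log2 fold change of -1.58 ± 0.24 (edgeR adjusted p = 0.000352). Neither gene's groups overlapped, though without control library c, the highest for both genes, Kif5c was at -1.40 and short of the fold threshold. Kif17, whose testis product is known at the CB, had 222, 162, 248 and 229 CPM in the control libraries and 84.1, 65.4 and 107 CPM in the cKO libraries, a log2 fold change of -1.32 ± 0.21 (edgeR adjusted p = 0.000476), and without cKO library c it was at -1.51. Kif2b was at -1.17 ± 0.19 (edgeR adjusted p = 0.000573), Kif2c at -1.14 ± 0.21 (edgeR adjusted p = 0.00139) and Kif27 at -0.69 ± 0.18 (edgeR adjusted p = 0.00908), all lower by adjusted p. Klc3, far lower in cKO RS, was at -0.43 ± 0.28 (edgeR adjusted p = 0.236) in CB and overlapped. The summed late spermatid markers were also lower in cKO CB, at 515 to 587 CPM against 2468 to 5200.3 CPM, as were 9 of 10 round spermatid markers, summed to 307 to 383 CPM against 725 to 828 CPM, and their part was not tested.

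All 7 members that fell in CB by adjusted p also fell in RS (Kif17, Kif1a, Kif27, Kif2a, Kif2b, Kif2c and Kif5c), 7 of the 20 that fell in RS. Of the 12 that rose in CB, 8 also rose in RS (Kif13b, Kif1c, Kif26a, Kif3b, Kif4, Kif5a, Kif5b and Klc1), 8 of the 17 that rose there. Sharing of this kind was frequent over all genes too. Of 13865 genes tested in both tables, 91.8% of those that fell in CB also fell in RS, and 77.1% of those that rose in CB also rose in RS, beside 66.7% of the members that rose in CB. Read from RS, 43.6% of all genes that fell there and 38.6% of those that rose did so in CB, against 38.9% of 18 and 47.1% of 17 members tested in both. Kif3a rose in CB at 0.45 ± 0.16 (edgeR adjusted p = 0.0371) and fell slightly in RS, and Kif21a, Kif3c and Klc2 rose in CB, at 1.16, 1.73 and 0.52, and did not pass in RS. CB and cell libraries were made with different kits and were not fitted together.

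**Figure D4:**
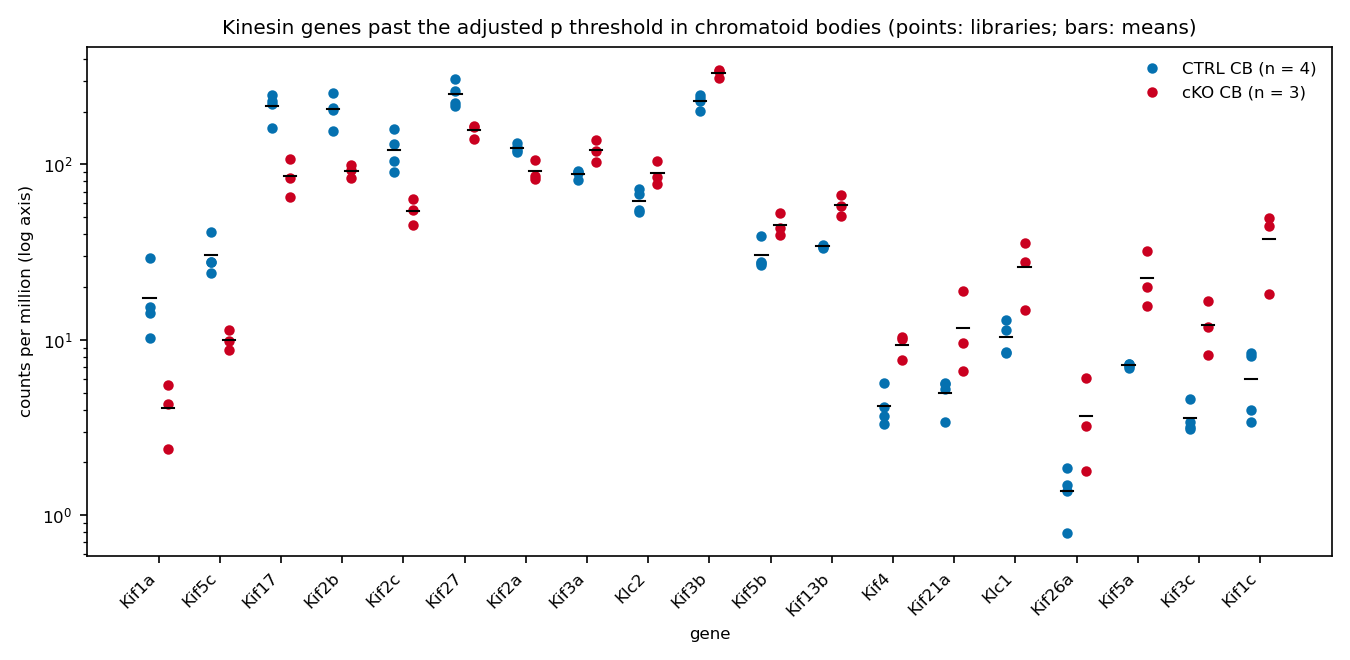
CPM on a log axis (y) in each chromatoid body library (points; bars, group means) for the 19 kinesin genes past the adjusted p threshold (x, sorted by log2 fold change), in 4 control (blue) and 3 cKO (red) libraries. Groups are apart for all of them but Kif26a, whose lowest cKO library, at 1.79 CPM, lies below the highest control library, at 1.86 CPM.

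Set beside each other, spindle and transport members did not separate by direction in RS. Of 15 spindle members 5 rose, 5 fell and 5 did not pass by adjusted p (median 0.06, range -2.73 to 1.90), and of 21 cargo motors and light chains 7 rose, 10 fell and 4 did not pass (median 0.02, range -3.29 to 1.71). In Spc the counts were 2 up and 2 down of 15 against 1 up and 4 down of 21, with medians 0.01 and -0.07. In CB they were 1 up and 3 down of 15 against 10 up and 3 down of 21, with medians -0.08 and 0.45 and a median of 0.07 over all genes. Of all genes 38.4% rose and 34.3% fell in RS, 14.0% and 14.1% in Spc and 18.1% and 18.4% in CB. The called CB risers Kif1c, Kif3c and Kif5a had their highest value in cKO library b, the shallowest. The difference between the classes was not tested, since members are not replicates. In summed level, spindle members stood at 2571 to 2824 CPM in control RS and 1234 to 1299.7 CPM in cKO RS, cargo motors at 1785 to 2038 and 1168 to 1258 CPM, and ciliary members at 1392 to 1483 and 743 to 818 CPM. Without Kif2b and Kif2c the spindle sum was 906 to 971 and 841 to 872 CPM, and without Kif17 the cargo sum was 1080.0 to 1129 and 1010.1 to 1043 CPM. These sums depended on scaling. By library size alone the spindle sum was 2098 to 2204 CPM in control and 1532 to 1584 CPM in cKO RS and the ciliary sum 1144 to 1163 and 915 to 996 CPM, while the cargo sum overlapped at 1491 to 1591 and 1487 to 1533 CPM. The sums without those genes then turned higher in cKO, at 756 to 762 and 1047 to 1069.8 CPM for spindle members and 867 to 909 and 1265 to 1286 CPM for cargo motors. Cargo motors in CB summed to 916 to 1098 CPM in control and 1044 to 1100.4 CPM in cKO, and without Kif17 to 754 to 850.2 and 960.1 to 1035 CPM, the latter overlapping by library size alone at 707 to 903 and 835 to 1069 CPM.

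Genes that work with kinesins were taken from lists of adaptors, dynein subunits and other spindle genes. Of all genes tested in RS, 38.4% rose and 34.3% fell by adjusted p, and 14.8% and 11.6% passed both thresholds. Of 10 cargo adaptors tested in RS, 6 rose and 3 fell by adjusted p, and 1 in each direction passed both thresholds. Kifap3, which holds Kif3a and Kif3b to their cargo, had 630.5, 614 and 636 CPM in control and 179, 187 and 177 CPM in cKO, -1.79 ± 0.06 (edgeR adjusted p = 2.19e-07). Trak2, a mitochondrial adaptor of kinesin-1, had 3.69, 3.02 and 2.96 CPM in control and 10.998, 7.70 and 9.58 CPM in cKO, 1.55 ± 0.19 (edgeR adjusted p = 0.000178), and its relative Trak1 was at 1.26 ± 0.10 (edgeR adjusted p = 1.29e-05). Groups did not overlap for these adaptors. Of 12 genes of dynein-1 and dynactin, the minus-end motor, 3 rose and 7 fell by adjusted p and none passed both thresholds (edgeR, with the same counts at an unadjusted p of 0.05), with the lowest value for Pafah1b1, the dynein regulator LIS1, at -1.11 ± 0.07 (edgeR adjusted p = 5.71e-06). Of 16 other spindle and cytokinesis genes 7 rose and 4 fell and none passed both, among them Prc1, the bundler of the central spindle, at 0.92 ± 0.09 (edgeR adjusted p = 4.02e-05) and Plk1, a mitotic kinase, at -0.56 ± 0.09 (edgeR adjusted p = 0.000924). The medians of the 3 lists were 0.53, -0.31 and 0.14, beside 0.11 over all genes.

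SMG6 cuts mRNAs that carry a premature stop codon, so the transcripts annotated with the NMD biotype are of interest. The authors' transcript tables share a read equally among all isoforms it matches, so isoforms of a gene are not independent. Of 178 transcripts of 47 members tested in RS, 10 were higher and 37 lower past both thresholds (13 genes in all), against 10.5% and 10.3% of 57133 transcripts. In Spc 7 of 178 were lower and none higher, against 3.54% and 1.84%, and in CB 2 of 128 were higher and 5 lower, against 2.22% and 4.73%. The 7 in Spc came from 3 genes (4 of Kif1a, 2 of Kif21a and 1 of Kif26b), the 5 lower in CB were all isoforms of Kif1a, and the 2 higher there were of Kif5a and Kif3c, so shares of transcripts count reads of 1 gene more than once. A transcript had to reach 20 counts in 3 libraries. Of those called, 2 of the 10 higher and 6 of the 37 lower in RS, 1 of the 7 in Spc and all 5 lower in CB reached it in libraries of 1 group only, so only the direction they showed was open to them. No member gene entered a genotype fit that way. These counts moved with the processing. With library size as the only scaling they were 24 higher and 32 lower in RS and 0 and 12 in CB. With 1 library left out the lower transcripts ranged from 4 (without cKO library 1) to 18 (without cKO library 2) in Spc, where leaving out cKO library 3 gave 11, and from 0 (without control library c) to 8 (without control library b) in CB, where leaving out control library a, control library d or cKO library c gave 2, 1 and 1. Of 8 NMD-biotype transcripts in RS, 2 of Kif1a entered the fit through the control libraries only and are given as levels without a test. Transcript ENSMUST00000186828 had 0.972, 0.633 and 0.890 CPM in control and 0.0794, 0.0611 and 0.0749 CPM in cKO, and ENSMUST00000188136 had 0.867, 0.633 and 0.632 CPM in control and 0.0794, 0.0407 and 0.0937 CPM in cKO. The other 6 ranged from -1.496 for one of Kif21b to 0.72 for one of Kif6. Of these 6 none was past both thresholds in RS (edgeR), and those of Kif6 and Kif14 (0.72 and 0.31) rose by adjusted p alone, while both of Kif21b and that of Kif1bp fell.

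The strongest transcript changes in RS with a mean of 50 or more counts were all in Kif1a and Kif5c, 4 and 2 transcripts, from -3.41 to -3.31. Kif1a transcript ENSMUST00000086819, of 47 exons, had 7.36, 4.60 and 6.23 CPM in control and 0.576, 0.366 and 0.749 CPM in cKO, -3.41 ± 0.27 (edgeR adjusted p = 3.45e-05). Kif5c transcript ENSMUST00000146247, a short form of 7 exons, had 6.33, 3.80 and 5.17 CPM in control and 0.476, 0.611 and 0.412 CPM in cKO, -3.35 ± 0.24 (edgeR adjusted p = 2.12e-05). The called isoforms, which share reads within a gene, numbered 7 of Kif1a, 6 of Kif5c, 8 of Kif2c, 6 of Klc3, 4 of Kif17, 5 of Kif1c, 3 of Kif4, 2 each of Kif21b and Kif26b and 1 each of Kif16bos, Kif26a, Kif2b and Kifc5b. These numbers hold 3 of Kif5c, 2 of Kif1a and 1 each of Kif1c, Kif4 and Kif26b that entered through 1 group only. Without the forms that entered through 1 group only, the called isoforms ranged from -3.35 to -2.32 within Kif5c and from -3.41 to -2.68 within Kif1a. The weakest fall was that of the form with the longest 3′ UTR in each gene (transcripts ENSMUST00000028102, with 3621 bases, and ENSMUST00000171796, with 2993 bases). A long 3′ UTR is among the known features of NMD targets. In the most counted coding transcript of each member the 3′ UTR had a median of 835 bases in the 4 genes called higher in RS (435 to 3085), 1842.5 bases in the 8 coding genes called lower (24 to 6972) and 671 bases in the 33 others. The ranges overlapped, and no test was made.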

How the data were processed

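RNA-seq libraries of Smg6-cKO and control spermatocytes, round spermatids and chromatoid bodies were analysed. After adapter trimming (cutadapt 2.8) and alignment by STAR 2.7.1a to GRCm38, the authors deposited counts per gene symbol made with TEtranscripts in reverse stranded mode. The authors also deposited estimated counts per transcript from featureCounts 2.0.1, where a fragment that matches several isoforms is shared equally among them. Small RNA and piRNA tables were not used here.

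Genes had to reach 10 counts in 3 libraries of a fit (transcripts, 20, after rounding to whole numbers) and were fitted with edgeR 4.0.16 (TMM, quasi-likelihood, Benjamini-Hochberg) in R 4.3.3, per comparison, and in 1 fit for the interaction. Elements were left out. Calls were made at an absolute log2 fold change of 1.5 and an adjusted p of 0.05, or the latter alone for the interaction. Levels per length used RefSeq exon unions. Any member could be named. The naming rule asked for library values of members called in a genotype comparison and of the 2 with the highest level per length in each class, and single values of other members are given beside them by class.

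The kinesin members, classes, marker lists and partner lists were chosen with earlier results of these data known. Alternatives were scaling by library size, DESeq2 1.42.0, no count filter, elements included, summed transcript counts, a replicate block and each library left out. No duplicate library was found (chi-square per degree of freedom of at least 9.89 in all 21 pairs of a group). The scripts were tested on simulated data.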

Additional observations from a re-analysis of the deposited data

Results flagged for a closer look

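The genotype effect differed between round spermatids and spermatocytes for 24 of 47 kinesin genes, by the genotype by cell type term of the edgeR fit of all 12 libraries at an adjusted p of 0.05. The term was higher for 12.8% and lower for 38.3% of the members, beside 19.0% and 24.1% of 18171 genes. Values are log2 differences, the effect in round spermatids minus that in spermatocytes. It was lower in round spermatids for Kif5c (-2.21), Kif2c (-1.91), Klc3 (-1.80), Kif16bos (-1.66), Kif1a (-1.63), Kif17 (-1.32), Kif2b (-1.005), Kif21b (-1.002), Kif27 (-0.98), Kif1bp (-0.74), Kif13a (-0.74), Kifc3 (-0.71), Kif15 (-0.64), Kif9 (-0.52), Kif2a (-0.49), Kif1b (-0.41), Kif3a (-0.38) and Kif20a (-0.30). It was higher there for Kif5b (1.57), Kif21a (1.44), Kifc5b (0.93), Kif19a (0.64), Klc1 (0.54) and Kif23 (0.47). Calls that were lost in at least 1 of the 12 fits without 1 library were those of Klc3, Kif2b, Kifc3, Klc1, Kif13a, Kif1b, Kif20a and Kif1bp, and the other 16 held in all 12. By library size alone most of the lower calls were lost, and Kif20a and Kif3a were called higher, at 0.41 and 0.32.

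In chromatoid bodies 1 control library stood apart from the other 3 for Kif5b, a heavy chain of kinesin-1. Library b had 39.2 CPM and the others 26.5 to 27.9 CPM, a gap of 0.891 of the whole range, which is past Dixon's critical value for 4 values. Only the control chromatoid bodies formed a group large enough for this check. It was run on 45 genes and marked 1, while chance alone marks about 1 in 20.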

How the results depend on the processing

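With scaling by library size alone, members called higher in cKO round spermatids went from 4 to 7, those called lower there from 9 to 6, those higher in cKO chromatoid bodies from 3 to 2 (without Kif5a), those higher and lower in control round spermatids against spermatocytes were 3 and 9, those lower in cKO round spermatids against spermatocytes 0, and those with a higher or lower interaction 29 and 4. Transcripts called in round spermatids were then 24 higher, and in chromatoid bodies 0 higher and 12 lower. The same scaling turned the genotype difference in round spermatids to 0.19 (Kif15), 0.10 (Kif16b), 0.28 (Kif1b), 0.33 (Kif20a) and 0.42 (Kif3a), and the interaction to 0.073 (Kif15), 0.30 (Kif1b), 0.41 (Kif20a), 0.21 (Kif2a), 0.32 (Kif3a), 0.18 (Kif9) and 0.000935 (Kifc3). For summed levels, where this scaling was added after seeing the data, the log2 ratio of cKO to control turned from -0.14 to 0.48 for spindle members without Kif2b and Kif2c and from -0.11 to 0.51 for cargo motors without Kif17 in round spermatids, and from 0.086 to -0.051 for cargo motors in chromatoid bodies. DESeq2 called 10 members with a higher interaction. For the 20 calls of single members in the genotype comparisons, 4 of 115 values under the other settings and 6 of 125 with 1 library left out lost the call and none changed direction. For the 47 values past the adjusted p alone, which were not refitted with libraries left out, 34 of 268 lost that threshold and 5 changed direction. The cause of these changes was not tested.

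With 1 library left out, members called in spermatocytes ranged from 0 to 1 higher and from 1 to 3 lower, in chromatoid bodies from 1 to 4 higher and from 1 to 3 lower, in round spermatids they stayed at 4 higher and 9 lower, and in cKO round spermatids against spermatocytes they ranged from 0 to 1 in each direction. Control round spermatids against spermatocytes gave 6 to 8 higher and 4 to 6 lower, and the interaction 5 to 8 and 12 to 18. Transcripts ranged from 0 to 2 higher and 4 to 18 lower in spermatocytes (18 without cKO library 2), from 8 to 10 and 32 to 38 in round spermatids, and from 1 to 4 and 0 to 8 in chromatoid bodies (0 without control library c).

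Replicate numbers were not taken as pairs, since the deviations of same-numbered libraries did not correlate above 0.1 in every pair of any comparison (from -0.196 to 0.342 in spermatocytes, from -0.174 to 0.100 in round spermatids, from -0.279 to -0.0992 between control and from -0.0607 to 0.600 between cKO cell types). With a replicate block the calls were 0 higher and 2 lower in spermatocytes, 4 and 9 in round spermatids, 6 and 5 in control and 0 and 1 in cKO between cell types, 5 and 17 for the interaction (without Klc1 and Kif20a), and for transcripts 0 and 9 in spermatocytes and 10 and 38 in round spermatids. No paired analysis was made in chromatoid bodies, because the numbers in their column names do not match those of the labels as a set. Depth limited the low members of chromatoid bodies.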
